A study of Homo sapiens with 28 samples.

Results

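The 38 genes described here encode enzymes that place or remove methyl groups on histones and DNA, together with core subunits of Polycomb repressive complex PRC2. Their regulatory DNA was followed by ATAC-seq, an assay in which a transposase cuts and tags open chromatin, in the ovarian cancer cell line Kuramochi under the PARP inhibitor olaparib. The genes came from a fixed list. Every peak of the deposited consensus table that overlapped a listed gene, extended by 10 kb on each side on GRCh38, counted as a member. This gave 276 of 105048 peaks. Each of the 38 genes held at least 1 peak, with a median of 5, a minimum of 1 and a maximum of 33.

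Kuramochi is an established epithelial line that carries a BRCA2 mutation, and all populations compared here derive from it. The 7 adapted populations are named by the olaparib concentration in uM that they grew in and were kept in, and run from T5 over T10, T20, T40, T80 and T160 up to T320. They were sorted for low CD24 and high CD44. P10 and P320 were drug-naive cells held for 9 days in 10 or 320 uM olaparib, which the submitters call persisters, and no sort is named for them. C was untreated and was also sorted on CD24 and CD44. Sort therefore cannot be told apart from exposure when P10 or P320 is set against C, or P320 against T320. In the data, same-numbered libraries deviated together among C and T, and not in pairs with P10 or P320. A difference between these 2 sets of libraries therefore cannot be told apart from exposure in the same comparisons. Each population had 2 libraries, and the labels do not say whether these were separate cultures, so p-values measure the spread between libraries, which may be technical. The counts come from bulk cells. A lower value may mean fewer cells with an open site or less opening per cell, which cannot be told apart.

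Methylation of histone H3 is written and erased by enzymes with narrow preferences for single lysines. KMT2 and SETD1 proteins methylate lysine 4 at promoters and enhancers, SETD2 and the NSD proteins methylate lysine 36 in transcribed genes, DOT1L methylates lysine 79, and SETDB1, SUV39H2 and EHMT1 methylate lysine 9 in silent chromatin. PRC2 methylates lysine 27 through EZH1 or EZH2, with EED and SUZ12 as partners. KDM proteins reverse these marks. DNMT1 copies CG methylation after replication, DNMT3A and DNMT3B set it anew, and TET enzymes oxidise it. Enzymes of both kinds, KDM5 and EZH2 among them, are widely studied in drug-tolerant cancer cells. Accessibility of a gene's chromatin is not a measure of its transcript, protein or enzyme activity.

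Of the 276 peaks, 40 overlapped an annotated start extended by 1 kb, 184 others lay in a gene body, 18 in the upstream flank and 26 in the downstream flank. The remaining 8 belong to genes with no strand in the annotation used here, 4 at a gene end and 4 in a flank. The start peak of a gene was the one with the highest mean count among its peaks at a start. For SETD1B, NSD3 and DOT1L it was the highest within 1 kb of either gene end, so it may mark the far end. By this rule 37 genes had a start peak and KDM5A had none. The peak used for DOT1L also covers the start of AP3D1. Among all member peaks, 38 touched another gene and 21 lay at another gene's start. Member peaks had a median width of 1183 bp, against 1119 bp for all peaks.

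The promoters of 4 of these genes are printed because their start peaks carried the results below. KDM2B and EZH2 stand for the start peaks that were more open in P320, and KDM6B was more open in T320. DNMT3A has an inner start that was called in T320 and an outer start that was called in P320. Each run holds 250 bases before and 50 bases after a RefSeq start (GRCh38.p14), 5′ to 3′ on the gene's strand, and all 300 bases lie inside the peak. Capitals mark matches, on either strand, to CCAAT, the core of the NF-Y element, to GGGCGG, a GC box, and to TTNGCGC, an E2F-type element; matches that overlap run together. The runs come from chr12:121467329-121467628 (KDM2B, minus strand), chr7:148884242-148884541 (EZH2, minus strand), chr2:25252082-25252381 and chr2:25341876-25342175 (DNMT3A inner and outer start, minus strand) and chr17:7833967-7834266 (KDM6B, plus strand).
KDM2B: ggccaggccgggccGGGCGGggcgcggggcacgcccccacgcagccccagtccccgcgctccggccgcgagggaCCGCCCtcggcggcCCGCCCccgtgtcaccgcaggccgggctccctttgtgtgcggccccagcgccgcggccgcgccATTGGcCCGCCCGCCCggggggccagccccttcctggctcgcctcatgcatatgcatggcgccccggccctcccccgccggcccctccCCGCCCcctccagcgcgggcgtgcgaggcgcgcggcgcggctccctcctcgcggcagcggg
EZH2: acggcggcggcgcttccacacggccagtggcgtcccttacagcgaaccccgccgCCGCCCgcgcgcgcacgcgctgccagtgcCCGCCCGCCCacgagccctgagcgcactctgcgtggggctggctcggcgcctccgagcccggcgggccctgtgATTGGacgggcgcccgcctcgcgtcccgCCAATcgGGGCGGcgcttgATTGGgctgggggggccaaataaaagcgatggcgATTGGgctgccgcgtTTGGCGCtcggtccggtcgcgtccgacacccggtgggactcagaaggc
DNMT3A inner start: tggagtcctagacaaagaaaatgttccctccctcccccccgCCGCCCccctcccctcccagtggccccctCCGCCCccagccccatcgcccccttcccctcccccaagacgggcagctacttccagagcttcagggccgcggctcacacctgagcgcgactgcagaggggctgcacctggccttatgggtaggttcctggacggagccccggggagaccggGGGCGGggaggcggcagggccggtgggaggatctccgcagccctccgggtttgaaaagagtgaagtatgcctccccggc
DNMT3A outer start: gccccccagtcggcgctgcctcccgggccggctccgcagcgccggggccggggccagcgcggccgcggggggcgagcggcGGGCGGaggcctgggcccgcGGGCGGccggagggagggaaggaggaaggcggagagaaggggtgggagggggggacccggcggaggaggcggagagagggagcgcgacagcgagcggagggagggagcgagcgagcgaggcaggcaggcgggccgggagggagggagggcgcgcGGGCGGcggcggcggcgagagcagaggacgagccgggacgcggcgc
KDM6B: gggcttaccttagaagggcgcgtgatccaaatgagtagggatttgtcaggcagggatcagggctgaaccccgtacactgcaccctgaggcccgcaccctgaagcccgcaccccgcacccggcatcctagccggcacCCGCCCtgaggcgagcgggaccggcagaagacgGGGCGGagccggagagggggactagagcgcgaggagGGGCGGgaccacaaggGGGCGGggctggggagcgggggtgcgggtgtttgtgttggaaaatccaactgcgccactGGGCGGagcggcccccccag

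Of these, the promoters of KDM2B, EZH2 and the outer DNMT3A start hold 46 CG dinucleotides each, the KDM6B promoter 24 and the inner DNMT3A promoter 18. A promoter sequence was matched for 34 of the 37 genes with a start peak. Their median CG count was 34, against 14 over 34796 RefSeq promoters, and their median G+C content was 69.15%, against 58.7%. GGGCGG occurred in 79.4% of member promoters and 44.9% of all promoters, CCAAT in 41.2% and 34.6%, TTNGCGC in 8.82% and 7.8%, and TGANTCA, the AP-1 element, in 5.88% and 7.73%. The RefSeq promoters include those without a start peak, so these contrasts also reflect the choice of genes with an open start. A closer set is the 11960 protein-coding genes with a start peak and a promoter sequence. Of these, 3195 had under 20 CG, 7100 had 20 to 39 and 1665 had 40 or more. The member genes numbered 6, 16 and 12 in the same bins. A match is a string of letters and not a bound site.

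Total counts lay between 9627970 and 29699950 per library, and replicate 1 was the shallower library in C and in every T population. The correlation between the 2 libraries of a population, over all peaks on the log2(CPM + 1) scale, ran from 0.926 in C to 0.987 in P320. Start peaks of protein-coding genes held 37.06% and 36.3% of the counts in P320, and 26.15% to 34.29% in the other libraries. All 276 member peaks passed the filter on low counts, which removed 0 peaks. Start-peak signal of 11 epithelial and ovarian markers summed to 152.21 to 175.32 CPM in the T populations, 312.53 CPM in P10 and 360.43 CPM in P320, against 256.13 CPM in C. The markers did not move as 1 in T320. KRT8 (40.19 CPM, against 26.79 CPM in C) and KRT18 (14.52 against 5.63) were higher. The others were lower, from PAX8 (27.81 against 30.61) to MSLN (10.18 against 51.12). Markers of other cell types had start peaks for 2 of 5 leukocyte genes, 2 of 4 endothelial, 1 of 3 hepatocyte, 3 of 3 neural and 3 of 4 fibroblast genes. Neural markers summed to 77.41 CPM in T320 and 39.96 CPM in P320, against 25.25 CPM in C. Leukocyte markers summed to 33.85 and 25.81 CPM in T320 and P320, against 20.07 CPM in C, and fibroblast markers to 44.96 and 42.76, against 37.95. Endothelial markers summed to 13.75 and 14.8 CPM, against 16.19, and hepatocyte markers to 2.75 and 14.75, against 22.39. Some of these sums join genes that moved apart. In T320, P320 and C, ITGB2 had 25.36, 7.58 and 8.02 CPM and SPI1 had 8.49, 18.23 and 12.05. KDR had 12.03, 11.96 and 10.15 CPM and VWF had 1.72, 2.84 and 6.04. COL1A1 had 16.65, 14.17 and 14.77 CPM, COL1A2 had 5.54, 4.72 and 5.89, and PDGFRA had 22.77, 23.87 and 17.29. The part of these marker changes in the results was not tested.

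A peak was called higher or lower at an adjusted p under 0.05 (edgeR's quasi-likelihood test, Benjamini-Hochberg over all 105048 peaks) and a change of at least 1 log2 unit. In T320 against C, 19 member peaks were called higher and 38 lower. That is 20.7% of the 276, against 30.5% of all peaks, or 6.88% higher and 13.8% lower against 15.0% and 15.5%. The lower doses gave 3 higher and 8 lower member peaks in T5 (3.99% against 9.19% of all peaks), 9 and 15 in T10 (all peaks 17.7%), 10 and 34 in T20 (24.5%), and 17 and 33 in T40 (25.2%). T80 gave 15 and 32 (26.0%), and T160 gave 12 and 30 (23.5%). In P10 against C the counts were 21 higher and 31 lower (18.8% against 22.1%), and in P320 against C 21 higher and 18 lower (14.1% against 11.8%), with 7.61% higher and 6.52% lower against 3.94% and 7.91% of all peaks. These comparisons share the C libraries. The counts of single genes given below are to be read beside these shares of all peaks. The libraries of T320 and C were free of overlap at each of the 57 called peaks, and at 174 of all 276. Those of P320 and C were free of overlap at each of the 39 called peaks, and at 178 of all 276. A lack of overlap stated below therefore adds no support to a call. With a block for the replicate number, since same-numbered libraries of C and T deviated together, T5 gave 4 higher and 21 lower, 9.06% against 12.6% of all peaks. The T5 count of 11 was 6 without T5 replicate 2 and 6 without C replicate 2, and the P320 count of 39 was 25 without P320 replicate 1.

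Among the start peaks, the calls in P320 and P10 were all higher ones. In P320 against C, 7 of 37 were called higher and 0 lower, 18.9% against 15.4% higher (15.9% in either direction) among the 13224 start peaks of all protein-coding genes. In P10 it was 4 higher and 0 lower, 10.8% against 9.28% higher and 10.5% in either direction. T320 gave 2 higher and 1 lower, 8.11% against 10.1% called in either direction. The median change of the 37 start peaks in P320 was 0.713 log2 units, against 0.428 over all start peaks and -0.111 over all peaks, and 33 of 37 values were above 0.

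The P320 counts rest on the scaling. With factors taken from start peaks alone, the median of all peaks in P320 moved to -0.611 and that of the member start peaks to 0.219. The called start peaks then numbered 1, KDM2B, with 3.12% higher among all start peaks, and member peaks as a whole were 4 higher and 52 lower. Over all peaks 3.21% of the calls were then higher. Without C replicate 2, 13 start peaks were called higher.

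**Figure D1:**
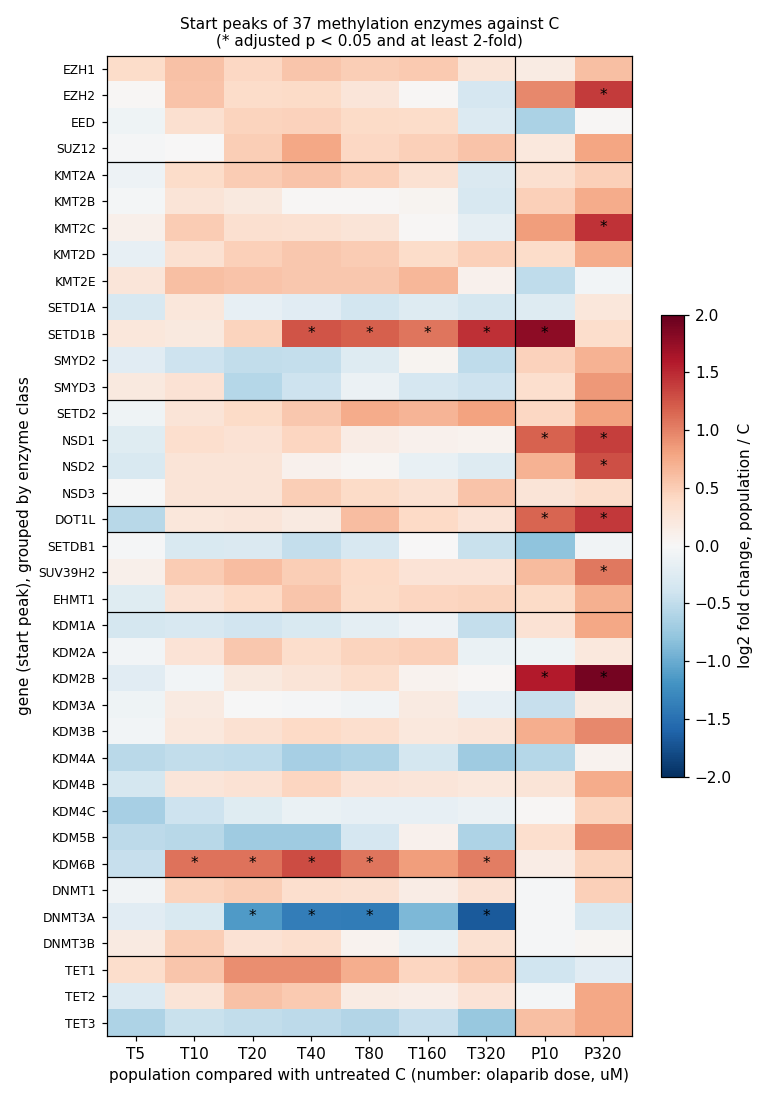
Change of the start peak of 37 genes (rows, grouped by enzyme class from PRC2 at the top to TET enzymes at the bottom) in each population against C (columns), as log2 fold change from edgeR, with an asterisk where the peak was called. In P320 7 start peaks are called higher, while in T320 SETD1B and KDM6B are called higher and DNMT3A is called lower; scaled on start peaks alone, 1 call remains in P320 and KDM6B is not called in T320.

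PRC2 start peaks were more open in P320 at EZH2, the main catalytic subunit. The EZH2 start peak (chr7:148882896-148885279) is the single peak of the gene and had 42.4 and 42.4 CPM in P320 and 31.7 and 31.2 CPM in P10, against 15.7 and 16.6 CPM in C. The 4 exposed libraries all lay above both C libraries. The log2 fold change was 1.39 ± 0.19 (SE, adjusted p = 0.00013, edgeR) in P320 and 0.96 in P10, where it was not called. In T320 the same peak read 12.3 and 13.3 CPM and was not called (-0.33 ± 0.20, adjusted p = 0.19). Scaled on start peaks, the P320 value was 0.90 and was not called.

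SUZ12, the subunit that holds the complex together, has 2 peaks, and 1 was called higher in P320 (1.49 ± 0.27) and P10 (1.02), but that peak lies in the downstream flank at the starts of LRRC37B and LOC124903972. EZH1, the second catalytic subunit, has 4 peaks and EED, which reads the mark, has 1; 0 were called in T320 or P320. No PRC2 peak was called in T320 against C, out of 8, where 30.5% of all peaks were called.

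Among the H3K4 methyltransferases, the start peak of SETD1B was called higher in T320 and that of KMT2C in P320. SETD1B, a catalytic subunit of the SET1 complex, was more open in T320 at a gene end (chr12:121790081-121790666). The libraries read 3.61 and 2.22 CPM (C), 3.38 and 3.27 (T5), 3.35 and 3.17 (T10), 4 and 3.80 (T20), 6.20 and 7.29 (T40), 6.03 and 7 (T80), 5.91 and 6.06 (T160) and 6.85 and 8.74 (T320). The libraries of T40 and above did not overlap those of C. The log2 fold change was 1.46 ± 0.26 in T320 (adjusted p = 0.00021, edgeR). P10 was higher still, at 10.1 and 9.55 CPM (1.78), while P320 had 3.49 and 3.79 CPM (0.35). The peak also touches RHOF.

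KMT2C, a methyltransferase of enhancers that is often mutated in cancer, was more open at its start in P320, at 18.9 and 18.4 CPM, against 7.22 and 6.46 CPM in C (1.45 ± 0.22, adjusted p = 0.00026, edgeR; 0.94, not called, scaled on start peaks). T320 had 5.05 and 6.81 CPM there. The gene has 11 peaks, of which 0 were called higher and 2 lower in T320, and 1 higher and 1 lower in P320.

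Inside KMT2A, the MLL gene, 1 of 5 peaks (chr11:118521704-118523214) was lower from the lowest dose. It had 17.1 and 16.7 CPM in C, 8.59 and 5.91 in T5, 6.49 and 3.32 in T10, and 4.71 and 2.87 in T320. Each of these adapted libraries lay below both C libraries. The change was -1.23 in T5, -1.82 in T10 and -2.19 ± 0.43 in T320 (adjusted p = 0.00049, edgeR), each called and each set against the same C libraries. P320 had 12.5 and 10.6 CPM there. Another KMT2A peak was called higher in P320. KMT2E, a relative without known catalytic activity, has 4 peaks, 2 of them called higher in T320 and 2 called lower in P320. The one that starts at 105023636 read 11 and 10.5 CPM in T320, against 5.33 and 3.87 CPM in C (1.24), and 2.36 and 2.04 CPM in P320 (-1.04).

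SMYD2 and SMYD3, which also methylate substrates other than histones, lie on the long arm of chromosome 1. SMYD3 has 33 peaks, with 0 called higher and 11 lower in T320, and 0 and 5 in P320. SMYD2 has 9, with 0 and 3 in T320, and 1 and 0 in P320. Over all peaks, 30.5% were called in T320 (15.5% lower) and 11.8% in P320 (7.91% lower). The SMYD2 rise is downstream of the gene (chr1:214337238-214338206), at 26.8 and 27.1 CPM in P320, against 6.24 and 8.25 CPM in C (1.89 ± 0.38). No library of another population exceeded 8.25 CPM. The SMYD3 falls in P320 included peaks at 246400224 (-1.83) and 245742428 (-1.46). The first was not called without P320 replicate 1 (-1.69), and the second had -1.28 without P320 replicate 1 and -0.80 without C replicate 2, neither called. SETD1A had 1 of 4 peaks called lower in T320 and 0 in P320, SETD1B had 1 of 9 called higher in each, and KMT2B (4 peaks) and KMT2D (3 peaks) had none in either.

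Of the 3 NSD genes, which write lysine 36 methylation, NSD1 and NSD2 were more open at their starts in P320, and the NSD3 start was not called (0.35). The NSD1 start (chr5:177132841-177135002), of an enzyme mutated in an overgrowth syndrome, had 32.2 and 29.9 CPM in P320 and 29.1 and 25 CPM in P10, against 11 and 12.7 CPM in C. The changes were 1.38 ± 0.18 (adjusted p = 9.3e-05, edgeR) and 1.18, both called. NSD2, known from translocations in myeloma, had 33.2 and 33.3 CPM in P320, against 12.2 and 14.9 CPM in C (1.28 ± 0.17), and was not called with the window offset described below (0.996) or scaled on start peaks (0.80). NSD1 scaled on start peaks had 0.89 and was not called. T320 was close to C at both starts, at 13.0 and 12.1 CPM for NSD1 and 11.6 and 11.2 CPM for NSD2.

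A peak in the NSD1 gene body (chr5:177231968-177233755) was instead higher in adapted cells, at 6.48 and 4.15 CPM (C), 12.4 and 14.5 (T5), 11.8 and 11.6 (T10), 14.6 and 16.1 (T20), 14.7 and 20.8 (T40), 17.1 and 22.3 (T80), 16.0 and 11.7 (T160) and 17.8 and 26.3 (T320). Each of the 14 adapted libraries lay above both C libraries. The change was 1.37 in T5 and 2.09 ± 0.26 in T320 (adjusted p = 8.4e-06, edgeR), both called. P320 had 7.80 and 7.17 CPM (0.52, not called). NSD1 has 14 peaks, 1 higher and 1 lower in T320 and 2 higher and 1 lower in P320.

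SETD2, the main trimethylase of lysine 36 and a tumour suppressor, has 4 peaks, 2 of them called higher in T320 and 0 in P320. The larger change (chr3:47016880-47018531) was at 15.0 and 14.7 CPM in T320, against 6.40 and 2.59 CPM in C, or 1.77 ± 0.34; it was 1.03 with the window offset. NSD2 had 0 of 5 called in T320 and 1 higher in P320. NSD3 had 1 of 5 lower in T320 and 1 higher in P320. DOT1L, the one enzyme for lysine 79, has 5 peaks and 1 higher in each comparison. In T320 that was a peak in the gene body (chr19:2220817-2221826) at 9.76 and 12.4 CPM, against 1.56 and 1.93 CPM in C, the largest rise of the 276 (2.65 ± 0.45, adjusted p = 0.00013, edgeR). T5 to T160 lay between 1.17 and 3.66 CPM. In P320 it was the end peak shared with AP3D1, at 14 and 14 CPM, against 3.94 and 6.37 CPM in C (1.42 ± 0.25; 0.96, not called, scaled on start peaks); P10 was also called (1.17).

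Of the 19 peaks of the H3K9 methyltransferases, 2 were called higher and 1 lower in T320, 15.8% against 30.5% of all peaks. In P320 4 were called higher and 0 lower, 21.1% against 11.8% of all peaks. SUV39H2, which acts in heterochromatin, has 1 peak, its start, at 34.5 and 31.7 CPM in P320, against 13.6 and 18.2 CPM in C. The change of 1.05 ± 0.21 (adjusted p = 0.002, edgeR) sat near the fold threshold. It was not called without C replicate 1 (0.866), with total-count scaling (0.982), scaled on start peaks (0.568) or with the window offset (0.867). EHMT1 (13 peaks) had 2 higher and 1 lower in T320 and 2 higher in P320. SETDB1 (5 peaks) had 0 called in T320 and 1 higher in P320.

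Histone demethylases held the largest start change in P320, at KDM2B, and 1 of the 2 start rises in T320, at KDM6B. KDM2B, a demethylase whose CXXC domain binds unmethylated CG and brings a Polycomb complex to CG islands, had 34 and 35.7 CPM at its start (chr12:121466400-121468643) in P320 and 31.0 and 24.5 CPM in P10, against 8.95 and 9.43 CPM in C. All 4 exposed libraries exceeded every C and T library, where the highest value was 11.8 CPM. The change was 1.92 ± 0.18 in P320 (adjusted p = 9.4e-06, edgeR) and 1.59 in P10. In T320 it was 0.02 ± 0.18. Of the 12 KDM2B peaks, 0 were called in T320 and 1 higher and 1 lower in P320.

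KDM6B, which removes methyl groups from lysine 27, had a start peak (chr17:7833643-7837197) that was called higher at T10, T20, T40, T80 and T320 and not at T160. It read 64.3 and 93.4 CPM (C), 54.5 and 60.6 (T5), 166 and 169 (T10), 148 and 188 (T20), 166 and 223 (T40), 151 and 181 (T80), 138 and 146 (T160) and 140 and 180 (T320). Every library of T10 to T320 lay above the C libraries, and both T5 libraries lay below them. P10 had 87.0 and 88.0 CPM and P320 111 and 104 CPM (0.44 ± 0.20, not called). The T320 change was 1.02 ± 0.21 (adjusted p = 0.00062, edgeR). The 5 Mb window around the gene was itself higher in T320, by 0.815 log2 units, and with that shift removed the value was 0.21 and not called. It was also not called without T320 replicate 2 (0.83), without C replicate 1 (0.778) or scaled on start peaks (0.932). The peak also overlaps DNAH2 and LOC124904106. KDM6B has 4 peaks, 1 called higher in T320 and 0 in P320.

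KDM4B, KDM4A and KDM4C, demethylases of lysines 9 and 36, gave the widest range. A KDM4B peak in the gene body (chr19:5036181-5037707) read 3.28 and 1.46 CPM in C, 7.94 and 7.58 in T10, 14.2 and 11.2 in T40 and 12.9 and 14.4 in T320, a T320 change of 2.60 ± 0.36 (adjusted p = 2e-05, edgeR). It was the single call among 11 KDM4B peaks in T320, with 0 in P320. KDM4A had the largest fall (chr1:43686964-43687878), at 1.63 and 0.717 CPM in T320, against 6.07 and 7.50 CPM in C (-2.62 ± 0.43; -1.95, still called, with the window offset). Of its 5 peaks 1 was lower in T320, and 1 higher and 1 lower in P320.

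KDM4C has 30 peaks along its gene on chromosome 9. In T320 3 were called higher and 7 lower, and in P320 0 and 3, where 30.5% and 11.8% of all peaks were called. One peak of the body (chr9:6868454-6869953) was already lower in T5. It had 25.1 and 36.6 CPM in C, 6.28 and 8.28 in T5, 9.98 and 12.3 in T10, and 8.99 and 7.62 in T320 (-1.91 ± 0.24, adjusted p = 7.2e-06), with P320 near C at 27.3 and 25.5 CPM. The P320 falls at 6938127 (-1.36) and 6897300 (-1.32) were not called with the window offset (-0.98 and -0.943) or without P320 replicate 1 (-1.49 and -1.14), and the first was also not called without P320 replicate 2 (-1.18) or C replicate 1 (-0.931).

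KDM2A (14 peaks) had 0 higher and 2 lower in T320 and 2 higher and 1 lower in P320. One of these rises (chr11:67198255-67199378) had 9.99 and 10.8 CPM in P320, against 4.43 and 3.02 CPM in C (1.5 ± 0.37), and was not called without P320 replicate 2 (1.48) or C replicate 2 (1.23) or scaled on start peaks (0.979). KDM3B (9 peaks) had 2 higher and 2 lower in T320 and 1 lower in P320. Its largest fall, the peak at 138391664, had 4.28 and 1.12 CPM in T320, against 8.12 and 12.2 CPM in C (-2.04 ± 0.49); the value was -3.19 without T320 replicate 1 and -1.26, not called, without T320 replicate 2. KDM1A (3 peaks) had 1 lower in T320, and KDM3A (3 peaks) 1 lower in P320.

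The KDM5 enzymes, which erase lysine 4 methylation, had 0 peaks called in T320 or P320 against C, where 30.5% and 11.8% of all peaks were called. In P10 1 KDM5B peak was called lower, where 22.1% of all peaks were called. With so few KDM5 peaks, these counts do not set the genes apart from other peaks. KDM5A has 1 peak, inside the gene, at 5.74 and 7.04 CPM in T320 and 6.35 and 6.24 CPM in P320, against 6.32 and 10.2 CPM in C. KDM5B has 4 peaks. Its start (chr1:202806798-202808714) had 11.4 and 10.3 CPM in T320, against 16.0 and 17.3 CPM in C (-0.62 ± 0.18, adjusted p = 0.010, edgeR), under the fold threshold. In P320 it had 31.8 and 32 CPM (0.94 ± 0.18, adjusted p = 0.0014), which passed the threshold with the window offset (1.05) and in a fit of P320 and C alone (1.02) and was 0.439 scaled on start peaks. With the window offset the T320 value was 0.194.

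Of the 2 starts of DNMT3A, the inner one was called lower in T320 and the outer one was called higher in P320. The outer one was also lower in T320, under the fold threshold, and a difference between the 2 starts was not tested. The inner start (chr2:25250459-25252925), from which a shorter isoform without part of the N terminus is made, read 16.2 and 21.6 CPM (C), 14.8 and 17.6 (T5), 15.7 and 15.2 (T10), 8.24 and 9.04 (T20), 6.20 and 8.16 (T40), 6.37 and 8.01 (T80), 8.16 and 12.1 (T160) and 6.76 and 5.20 (T320). From T20 upward every library lay below both C libraries. The T320 change was -1.69 ± 0.24 (adjusted p = 2.3e-05, edgeR). T20, T40 and T80 were also called (-1.13, -1.39 and -1.39) and T160 was not (-0.90). P10 had 20.2 and 17.2 CPM and P320 16.2 and 14.2 CPM, neither called.

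The outer DNMT3A start (chr2:25340436-25343012) had 28.4 and 30.7 CPM in P320 and 20.1 and 20.2 CPM in P10, against 8.21 and 10.4 CPM in C. The changes of 1.66 ± 0.24 in P320 (adjusted p = 0.0002, edgeR) and 1.10 in P10 were both called, and the P320 libraries stood above all others. In T320 this start had 4.45 and 6.05 CPM (-0.81 ± 0.26), under the fold threshold. Between the starts, a peak of the gene body (chr2:25314234-25315785) went down with dose. It had 16.8 and 18.5 CPM (C), 14.6 and 16.1 (T5), 14.1 and 15.3 (T10), 9.74 and 8.22 (T20), 7.30 and 6.99 (T40), 9.51 and 6.55 (T80), 5.48 and 7.32 (T160) and 3.08 and 2.87 (T320), or -2.58 ± 0.23 in T320 (adjusted p = 4e-07).

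The 5 Mb window that holds DNMT3A was lower by 0.68 log2 units in T320. With that shift removed, the inner start had -0.997 and was no longer called at the fold threshold (adjusted p = 0.0023), while the body peak kept -1.89 and its call. DNMT3A has 8 peaks, 0 higher and 2 lower in T320 and 1 higher in P320. DNMT1 (3 peaks) and DNMT3B (7 peaks) had 0 called in either. The DNMT1 start had 18.0 and 20.0 CPM in T320 and 22.0 and 21.4 CPM in P320, against 13.5 and 17.6 CPM in C. The DNMT3B start had 7.88 and 5.06 CPM in T320 and 5.47 and 5.13 CPM in P320, against 5.50 and 4.90 CPM in C.

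**Figure D2:**
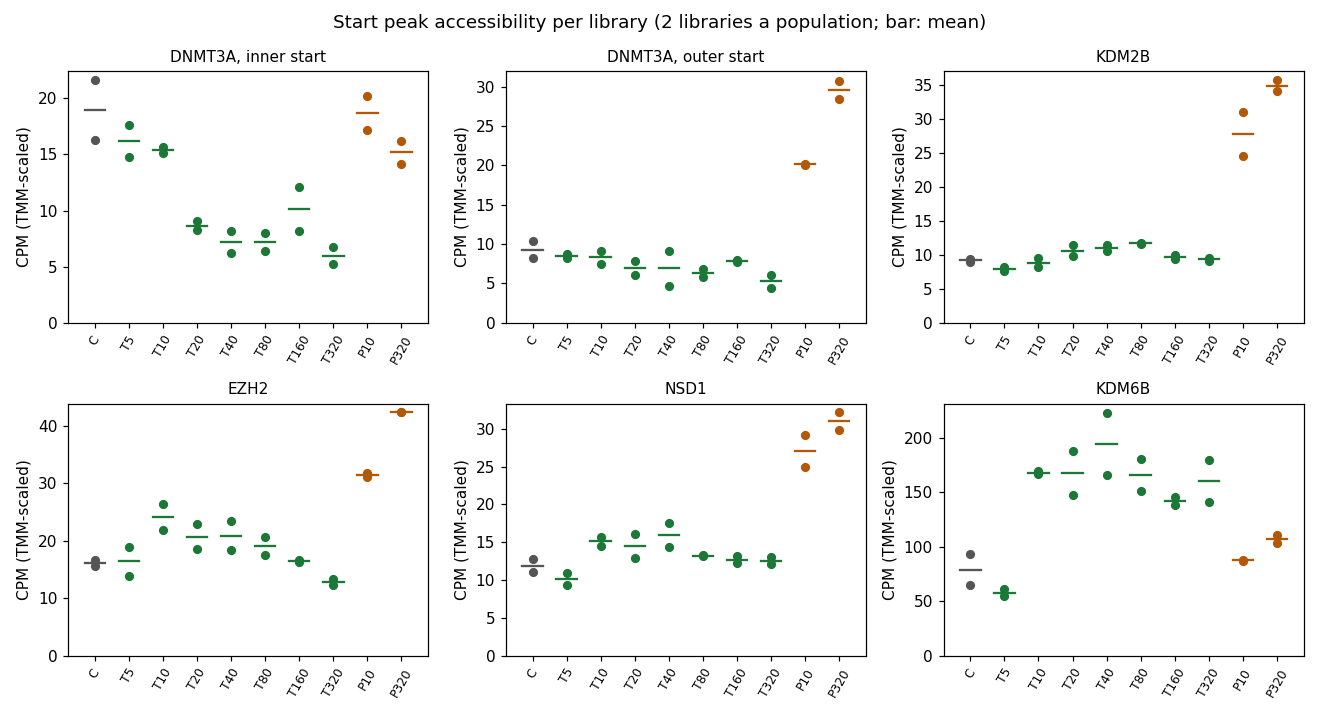
CPM (TMM-scaled) of 6 start peaks in each library, with populations along the x axis from C over T5 to T320 to P10 and P320; dots are libraries, 2 a population, and bars are means. The inner DNMT3A start reads 6.76 and 5.20 CPM in T320, against 16.2 and 21.6 CPM in C, the outer DNMT3A start, KDM2B, EZH2 and NSD1 are highest in P320, and KDM6B lies at 138 CPM or more in T10 to T320.

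TET enzymes changed mainly away from their tallest start peak. TET1 (5 peaks) had 2 higher in T320 and 0 in P320. The peak at its outermost start (chr10:68559926-68561682) read 8.99 and 14.1 CPM in T320, against 3.53 and 6.79 CPM in C (1.14 ± 0.30), and was not called with the window offset (0.781). TET2, often mutated in blood cancers, has 6 peaks. Of these 1 was higher in T320 (chr4:105174115-105175240), at 4.11 and 5.83 CPM, against 2.22 and 0.66 CPM in C (1.89 ± 0.57). It was not called with the window offset (1.44), without T320 replicate 2 (1.60) or without C replicate 2 (1.18), and was 2.91 without C replicate 1. Another was lower in P320 (chr4:105215251-105216354), at 0.953 and 1.15 CPM, against 2.46 and 4.38 CPM in C (-1.72 ± 0.35), and was not called without C replicate 2 (-1.22). TET3 (9 peaks) had 0 higher and 2 lower in T320. In P320 1 was higher, an inner start (chr2:74001981-74003187) at 23.4 and 20.7 CPM, against 7.47 and 8.82 CPM in C (1.43 ± 0.24; 0.943, not called, scaled on start peaks).

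Start peaks with more CG in the promoter had larger changes in P320 and P10. Over the 34 genes with a promoter sequence, Spearman's rho between CG count and log2 fold change was 0.72 in P320 (Pearson's r 0.77) and 0.73 in P10 (0.68), and -0.15 in T320 (-0.06). The same held over 11960 protein-coding genes, with a rho of 0.55 in P320, 0.41 in P10 and 0.03 in T320. Of the 12 member promoters with 40 or more CG, 6 had a start peak called higher in P320, or 50%, close to the 47.5% of 1665 such genes overall. With 20 to 39 CG it was 0 of 16 (11.8% of all such genes), and with fewer than 20 it was 0 of 6 (3.76%). The points of each comparison share their 4 libraries, and the bins were set after the values were seen. The part of base composition in these changes, and of the larger share of counts in start peaks in P320, was not tested.

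**Figure D3:**
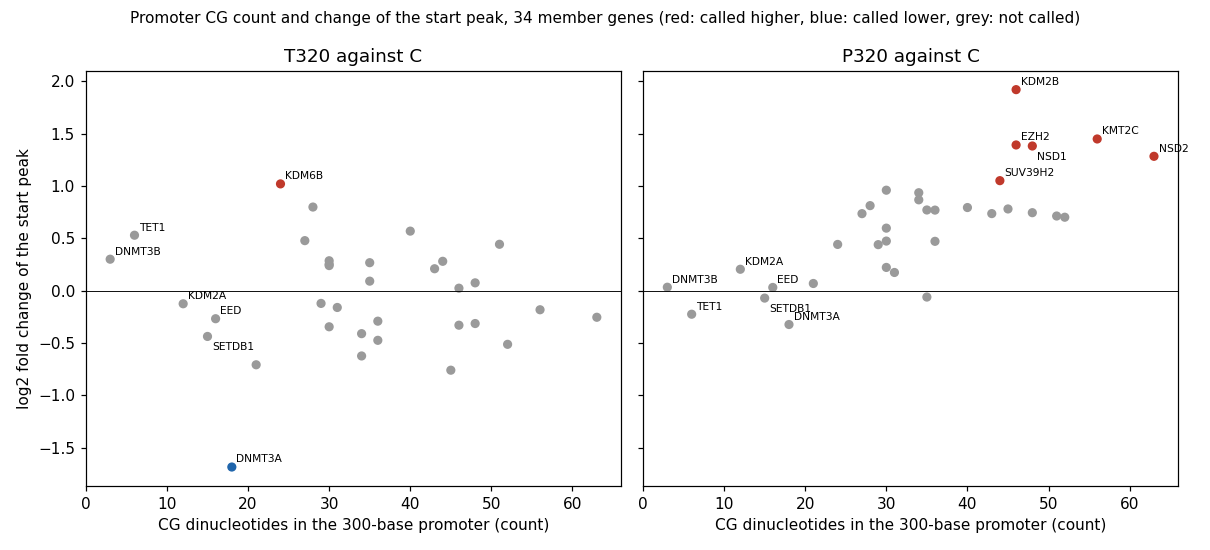
Number of CG dinucleotides in the 300-base promoter (x axis) and log2 fold change of the start peak (y axis) for 34 member genes, in T320 against C on the left and in P320 against C on the right; red points were called higher, blue lower, and grey not called. In P320 the 6 called genes all have 40 or more CG, and in T320 the called genes, KDM6B and DNMT3A, have 24 and 18.

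Many falls in T320 lay where the surrounding chromosome was also lower. The 6 listed genes on chromosome 1 (KDM1A, KDM4A, SETDB1, KDM5B, SMYD2 and SMYD3) hold 59 peaks, of which 0 were called higher and 16 lower. Their median change was -0.644 log2 units, against -0.734 over the other 11116 peaks of chromosome 1, of which 33.4% were called lower and 4.42% higher. DNA copy number was not measured, and its part was not tested. With the median shift of each 5 Mb window removed, member calls in T320 went to 18 higher and 22 lower, and 25.9% of all peaks were called. For SMYD3, in a window lower by 0.68, the 11 lower and 0 higher peaks became 3 lower and 4 higher.

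The windows of KDM5B (-0.81), KDM1A (-0.79) and SETDB1 (-0.78) were lower as well, and those of KDM6B (0.815), SETD2 (0.72) and DNMT3B (0.48) were higher. In P320 the window shift was smaller in size than in T320 at 30 of the 38 genes and larger at 8, the lowest at KDM4C (-0.372) and the highest at SETD1A (0.335). Among the start peaks, SETD1B kept its call in T320 with the window offset (1.18), and KDM6B and DNMT3A did not.

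**Figure D4:**
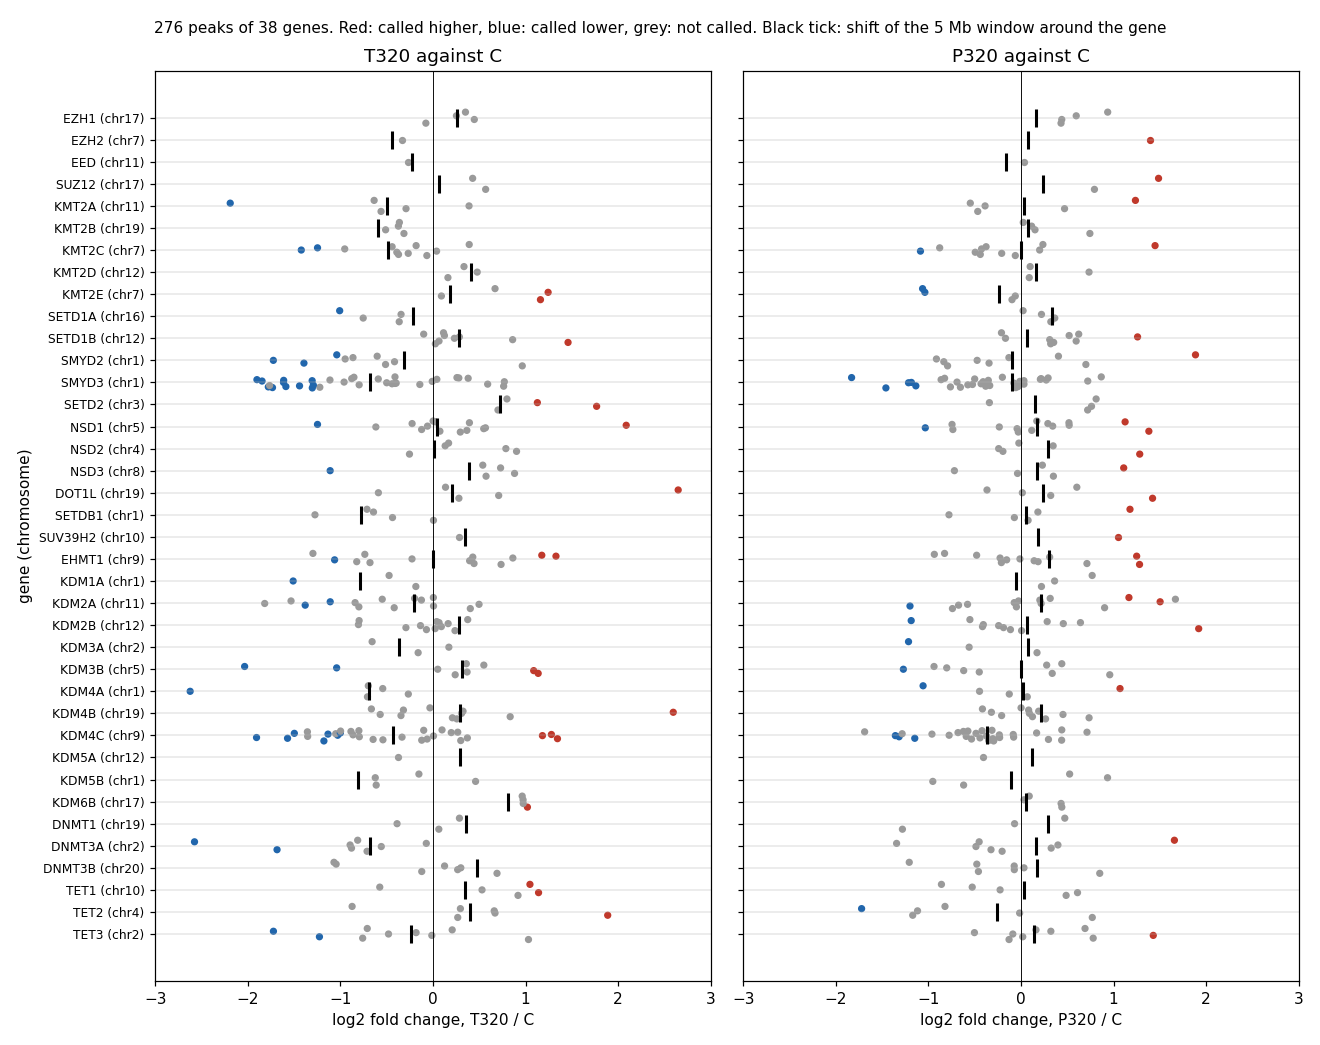
Log2 fold change of each of the 276 peaks (points), by gene (rows, with the chromosome), in T320 against C on the left and in P320 against C on the right; red was called higher, blue lower, grey not called, and the black tick is the median shift of the 5 Mb window around the gene. In T320 the ticks of the chromosome 1 genes lie between -0.81 and -0.31 and 16 of their peaks are blue.

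T320 and P320 were cells at the same dose, after adaptation and after 9 days, and were compared directly. Of the 276 peaks, 32 were called higher and 53 lower in T320 than in P320, 30.8% against 34.2% of all peaks, of which 19.7% were higher and 14.5% lower. Among the 37 start peaks 1 was higher and 13 were lower, 37.8% against 23.7% of all start peaks; lower calls alone were 35.1% against 20.6%. Scaled on start peaks, the split turned to 49 higher and 21 lower, with 2 and 6 among the start peaks, while that scaling moved the median of all peaks to 0.426 and gave 81.7% higher among the calls over all peaks. Lower calls also went with promoter CG, with a Spearman's rho of -0.59 over the 34 member genes and -0.35 over 11960 genes. With 40 or more CG, 8 of 12 member starts were called lower, against 43.5% of all such genes. With 20 to 39 CG it was 3 of 16 (17.6% of all such genes), and with fewer than 20 it was 1 of 6 (12.3%). The part of base composition was not tested.

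The 13 lower starts were EZH2 (-1.72 ± 0.20), KMT2B (-1.06), KMT2C (-1.63), SMYD2 (-1.21), SMYD3 (-1.28), NSD1 (-1.31), NSD2 (-1.54 ± 0.17), DOT1L (-1.14), KDM1A (-1.24), KDM2B (-1.90 ± 0.18), KDM5B (-1.56 ± 0.18), DNMT3A (-1.36) and TET3 (-1.54). The higher one was SETD1B (1.11). KDM1A, the LSD1 demethylase, had 14.6 and 17.1 CPM in T320, against 39.7 and 35.5 CPM in P320. KMT2B had 62.2 and 81.9 CPM in T320, against 147 and 154 CPM in P320. SMYD2 had 14.1 and 23.0 CPM in T320, against 44.3 and 42.8 CPM in P320, and SMYD3 10.3 and 13.7 CPM, against 28.9 and 29.7 CPM. In each of these genes the libraries of T320 lay below those of P320. Libraries were free of overlap at all 85 peaks called in this comparison, and at 203 of the 276, so this adds no support. TET3 had 6.94 and 8.29 CPM in T320, against 22.9 and 21.7 CPM in P320. Lower starts outside the 37 were the inner TET3 start (-1.44) and the outermost KDM2A start (chr11:67118208-67120303, -1.32; -0.893, not called, with the window offset).

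Of these, EZH2, NSD2, KMT2C, KDM2B and TET3 were also called with the window offset and scaled on start peaks. With the window offset KMT2B (-0.368), SMYD3 (-0.69), KDM1A (-0.50), KDM5B (-0.855), DNMT3A (-0.514) and SETD1B (0.894) were not called. Scaled on start peaks KMT2B (-0.67), SMYD2 (-0.836), SMYD3 (-0.894), NSD1 (-0.905), DOT1L (-0.755), KDM1A (-0.851) and DNMT3A (-0.956) were not. KMT2B was also not called with total-count scaling (-0.994). Without T320 replicate 1 KMT2B had -0.877 and SMYD2 -0.918, and SETD1B had 0.91 without T320 replicate 2 and 0.974 without P320 replicate 1, none called. The outer DNMT3A start differed most among the starts, at 4.45 and 6.05 CPM in T320, against 28.4 and 30.7 CPM in P320 (-2.47 ± 0.25, adjusted p = 6.9e-07, edgeR; -1.63 with the window offset).

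Away from the start peaks, the largest rises in T320 over P320 were at TET2 (the peak at 105174115, 3.06 ± 0.59; 2.38 with the window offset), DOT1L (2220817, 3.02 ± 0.44), KDM4B (5036181, 2.92 ± 0.35), KDM4C (6938127, 2.54 ± 0.33) and KMT2E (105023636, 2.28 ± 0.26). The largest falls besides DNMT3A were at SMYD2 (214337238, -2.93 ± 0.41), KDM2A (67198255, -2.61 ± 0.41), SMYD3 (246146446, -2.57 ± 0.49) and again KDM2A (67253587, -2.22 ± 0.73). The last was not called without T320 replicate 2 (-1.89) or P320 replicate 2 (-2.22), with the window offset (-1.80) or scaled on start peaks (-1.80).

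**Figure D5:**
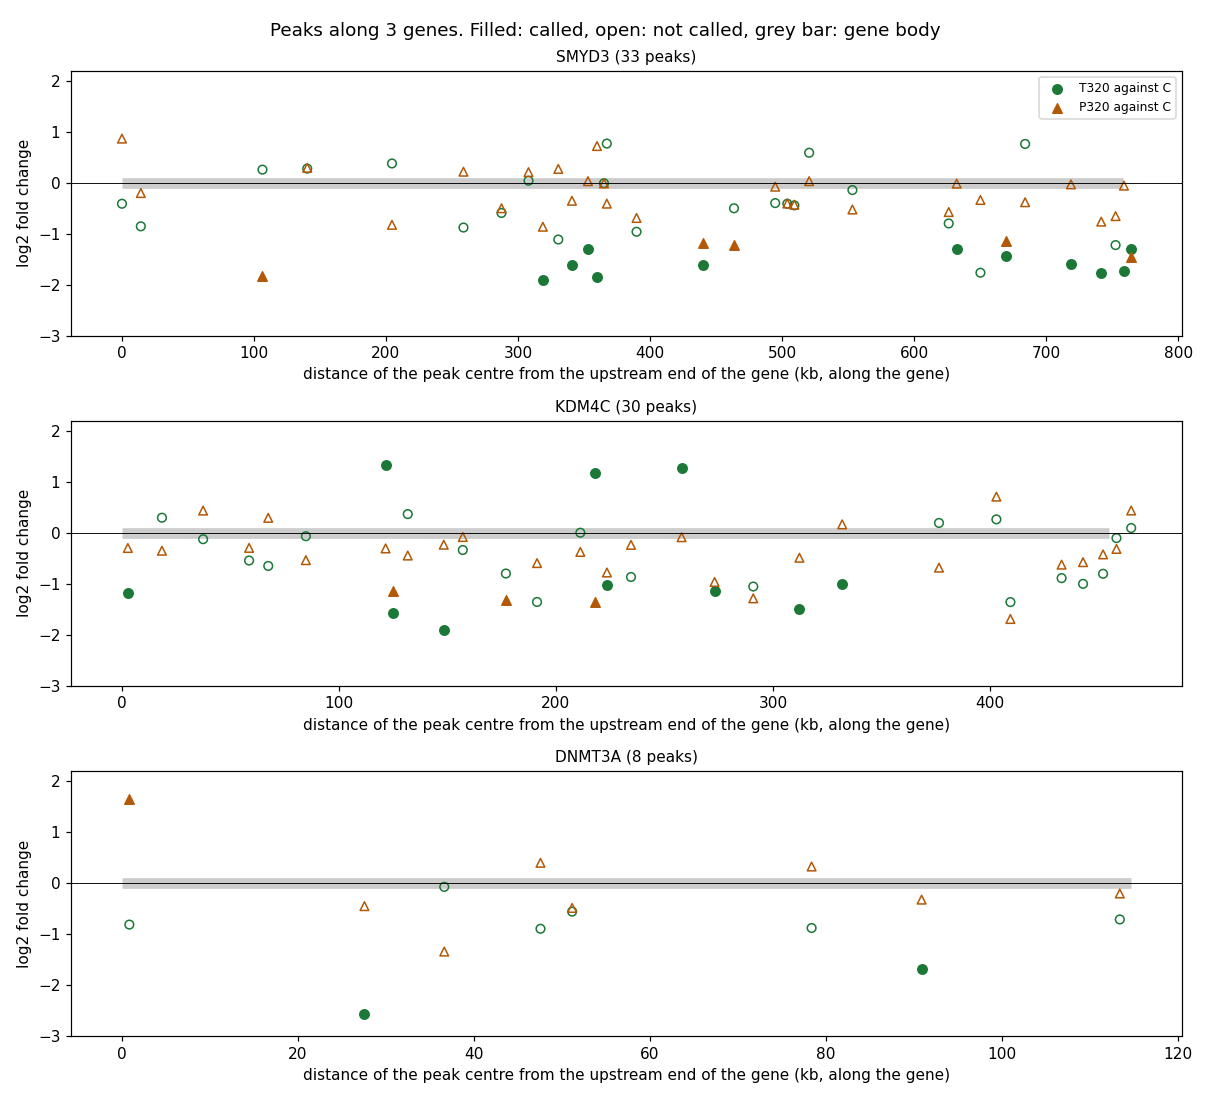
Log2 fold change against C (y axis) of each peak of SMYD3, KDM4C and DNMT3A by its distance in kb from the upstream end of the gene (x axis), for T320 (green circles) and P320 (orange triangles); filled symbols were called and the grey bar is the gene body. SMYD3 shows 11 filled circles, all below 0, KDM4C 3 above and 7 below, and DNMT3A a filled triangle at its outer start (1.66) with 2 filled circles inside the gene.

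The trend over the 7 adapted populations, with the libraries of a population summed, asks which peaks followed the dose. Of the 276 peaks, 2 were called with a rising slope and 5 with a falling one, at least 0.25 log2 units per doubling of the dose, 2.54% against 5.72% of all peaks. No member start peak was among them, against 0.885% of all start peaks (edgeR; 4 of the 37 had an unadjusted p under 0.05). Their slopes ran from -0.21 at DNMT3A to 0.23 at SETD1B. The rising peaks were a KDM4C peak at 6978478 (0.29 ± 0.07) and the SETD2 peak at 47016880 (0.27 ± 0.05). The falling ones were KDM4C at 7129592 (-0.42 ± 0.06), SMYD3 at 246165745 (-0.38 ± 0.10) and 246187912 (-0.33 ± 0.08), DNMT3A at 25314234 (-0.34 ± 0.06, adjusted p = 0.0075) and DNMT3B at 32792091 (-0.32 ± 0.06).

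The 2 rises were not called when scaled on start peaks (0.259 and 0.246), and SETD2 not with the window offset (0.16) or without T10 replicate 2 (0.24). Without T5, SMYD3 had -0.343 and -0.287 and DNMT3B -0.22, none called. The 2 SMYD3 slopes were also not called with the window offset (-0.27 and -0.23) or without T320 replicate 2 (-0.304 and -0.307), the first not without T20 replicate 1 (-0.38) and the second not without T80 replicate 2 (-0.305). DNMT3B had -0.27, not called, without T320 replicate 2. The count of 7 was 14 without T160 replicate 2 and 11 on single libraries with the replicate block, or 3.99% against 6.51% of all peaks.

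A list of 66 further genes of histone and DNA methylation was measured alongside, and 64 had a start peak. In T320 1 start was called higher and 1 lower, 3.12% against 10.1% of all start peaks. PRMT1, the main arginine methyltransferase, had 117 and 150 CPM in T320, against 48.2 and 71.1 CPM in C (1.16 ± 0.22). MTAP, which salvages methionine from a by-product of polyamine synthesis, had 15.5 and 19.9 CPM in T320, against 34.9 and 40.0 CPM in C (-1.08 ± 0.21). In P320 9 starts were called higher and 0 lower, 14.1% against 15.4% higher of all start peaks. These were KMT5B (1.73), a writer of lysine 20 of histone H4, PRDM2 (1.72), SMYD4 (1.32), SUV39H1 (1.01), a sister enzyme of SUV39H2, KDM7A (1.24), the PRC2 partner AEBP2 (1.11), the KMT2C and KMT2D partners PAXIP1 (1.51) and NCOA6 (1.01), and MBD3 (1.31). SUV39H1 and NCOA6 sat near the fold threshold. These 9 values are given with TMM over all peaks only. Scaled on start peaks, 3.12% of all start peaks were called higher in P320. PRDM2 had 44.3 and 43.4 CPM in P320 and 33.7 and 30.8 CPM in P10, against 11 and 15.4 CPM in C. In P10 KMT5B, PRDM2 and PAXIP1 were higher, and RBBP5 (-1.11) and CXXC1 (-1.25), which belong to SET1-type complexes, were lower.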

How the data were processed

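ATAC-seq libraries were made by the Omni-ATAC protocol and sequenced as paired ends, per the labels' protocols. The deposited table holds raw counts per consensus peak, made by the authors. The submitters' processing notes name MACS2, Bowtie2, DESeq2 and HOMER 4.1, deepTools (3.1, 3.5.1), SAMtools, Trim Galore and Picard, with GRCh38 and hg38. Whether reads or fragments were counted, how duplicates were treated, and whether peak starts count from 0 or 1 are not given in the sources used here. The labels describe 28 samples, of which 20 have a column; 8 samples of T320 cells grown without drug or treated again are not analysed here.

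Counts of all 105048 peaks were fitted in R 4.3.3 with edgeR 4.0.16 (robust quasi-likelihood, TMM scaling, filterByExpr, 10 populations as the only factor, all 20 libraries). CPM are edgeR's, with TMM sizes, and SE is the fold change over the root of F. The trend was fitted on counts summed per adapted population (n = 7) against log2 dose, with no filter. The window offset subtracts the median shift of the other peaks in 5 Mb windows that hold at least 20 of them. DESeq2 1.42.0 was an alternative. Same-numbered libraries deviated together in all 28 pairs of populations among C and T (r from 0.174 to 0.587) and in 0 of the 17 pairs that include a P population, so the numbers pair the samples within C and T only, as seen in the data and not stated by the labels. On counts simulated for T320 against C over 105048 peaks, 64 of 100 peaks changed by 1.5 log2 units and 88 of 100 changed by 2.5 were recovered, with 5 false calls. The changed peaks had a mean of 2 CPM or more. No other peak differed between populations, and libraries varied independently, without the shared deviation of same-numbered libraries. The simulation therefore gives no rate of false calls for the real data, where far more peaks were called.

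The members, the lists and the bins of CG count were chosen with earlier results of these data known. The text names every listed gene, every start peak called in T320 or P320 against C or in T320 against P320, the 5 largest rises and falls among other called peaks (2 CPM or more in the population that is higher, no overlap of libraries), and EZH2, KDM5A, KDM5B, KDM6B, DNMT1 and DNMT3B in any case; other peaks were added after their values were seen. Other alternatives were total-count scaling, TMM from start peaks alone, no filter or a filter of 2 CPM, a replicate block, fits of the compared populations alone, the gene body alone, and leaving out each library.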

Additional observations from a re-analysis of the deposited data

Results flagged for a closer look

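In 4 of the 276 peaks (1.45%, against 1.32% of all peaks) T320 and P320 were called in opposite directions against the shared C libraries and were also called against each other by edgeR's quasi-likelihood test. The peaks were chosen for this, so the values describe them. The KMT2E peak at chr7:105023636-105025449 had 11 and 10.5 CPM in T320 and 2.36 and 2.04 CPM in P320, against 5.33 and 3.87 CPM in C, and T320 was higher than P320 by 2.28 log2 units (adjusted p = 1.7e-06). The KDM4C peak at chr9:6938127-6939284 had 9.93 and 10.5 CPM in T320 and 1.94 and 1.56 CPM in P320, against 5.83 and 3.35 CPM in C, a difference of 2.54 (adjusted p = 7.2e-06). The SMYD2 peak at chr1:214337238-214338206 had 4.54 and 2.73 CPM in T320 and 26.8 and 27.1 CPM in P320, against 6.24 and 8.25 CPM in C, a difference of -2.93 (adjusted p = 1.4e-05). The KDM2A peak at chr11:67198255-67199378 had 2.23 and 1.30 CPM in T320 and 9.99 and 10.8 CPM in P320, against 4.43 and 3.02 CPM in C, a difference of -2.61 (adjusted p = 4e-05). The sides of P320 against C were not called in every alternative at KDM4C and KDM2A. With the window offset, 0 KMT2E peaks were called in P320 against C and 0 KDM2A peaks in T320 against C. Those sides were therefore lost as well.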

How the results depend on the processing

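Of 934 values of 72 named results under the alternatives, 863 kept their side of the threshold, 69 kept their direction but lost the call, 2 gained one, and no called value changed sign. The total includes 65 values with no filter and 72 with the filter of 2 CPM, all unchanged. The main filter removed 0 peaks and the stricter one kept all 276 members, so these refits could hardly differ. Scaled on start peaks 19 of 72 values lost the call, and with the window offset 17 of 72 did. Of the values not called, 15 changed sign, over 10 results at EZH2, KDM5B, KDM6B, DNMT1 and DNMT3B. With factors from start peaks the T5 count of 11 was 7, the 7 start peaks called in P320 were 1 and the 14 called in T320 against P320 were 8. On the same scaling the share of higher calls went to 57.1% from 27.3% in T5, to 20.8% from 37.5% in T10, to 16.0% from 34% in T40, to 13.7% from 31.9% in T80 and to 15.2% from 28.6% in T160. P10 gave 6 higher and 38 lower. Over all peaks the share moved the same way, to 66.2% from 51.5% in T5 and to 35.4% from 48.0% in T10. It went to 31.3% from 47.0% in T40, to 32.5% from 47.5% in T80 and to 33.1% from 46.7% in T160. In P10 it went to 22.2% from 42.2%. With total-count scaling the T5 share was 50%, against 61.3% over all peaks. The window offset gave 15 peaks in T10, 27 in T20, 26 in T40 and 25 in T80, and 1 start peak in T320. Calls over all peaks also fell, from 8944 higher and 9688 lower to 6918 and 8263 in T10. They fell from 11742 and 13973 to 9531 and 11417 in T20, and from 12425 and 14017 to 9595 and 11173 in T40. In T80 they fell from 12967 and 14314 to 10357 and 11954. Of all start peaks, 3.21% were then higher and 2.59% lower in T320. DESeq2 gave 17 peaks in T5 and 11 in the trend. Shares of all peaks are not given for DESeq2 or for leaving out a library, so those counts describe the members alone. The cause of these shifts was not tested. Leaving out 1 library gave 6 to 13 peaks in T5, 18 to 32 in T10, 34 to 56 in T20, 40 to 57 in T40, 35 to 56 in T80, 31 to 47 in T160, 42 to 74 in T320, 36 to 55 in P10, 25 to 38 in P320, 72 to 87 in T320 against P320 and 6 to 14 in the trend, and 2 to 4 start peaks in T320, 6 to 13 in P320 and 13 to 15 in T320 against P320. Where this leaves 1 library in a population, it is assumed to vary like the others. The lowest member count was 0, and 12 member peaks had under 10 counts in some library, so small changes there were not detectable at this depth.

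A replicate block gave 25 peaks in T5, 71 in T320 (25.7% against 32.8% of all peaks) and 11 in the trend, and changed no call of the named results.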
